A study of Mus musculus with 27 samples.

Results

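The core pluripotency factors described here were *Pou5f1* (which encodes Oct4), *Sox2*, *Nanog*, *Sall4*, *Lin28a* and *Utf1*, 6 genes of the 25807, 25216 and 24849 listed in the 3 deposited RNA-seq count tables. Their rows were taken by gene symbol, and the 6 were chosen with earlier results of these data known. All 6 were found in every table and passed the count filter in every comparison. In mouse embryonic stem cells (mESCs), Oct4, a POU homeodomain protein, and Sox2, an HMG-box protein, bind DNA side by side and activate genes of the undifferentiated state, among them their own and *Nanog*. Nanog is a homeodomain protein and Sall4 a zinc finger protein of the same network. Utf1 is a chromatin-associated protein whose gene is a known Oct4 and Sox2 target. Lin28a is an RNA-binding protein that blocks maturation of the let-7 miRNAs, which themselves repress *Lin28a* and other targets.

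The libraries were made from J1 mESCs, an established mouse line grown without feeders on gelatin in serum and leukemia inhibitory factor (LIF). The study asked what depletion of Gas41, the YEATS-domain protein listed in the tables as *Yeats4*, does to mESC identity. Cells carried a lentiviral control vector (shNT, called shCon in the labels, 3 libraries), shGas41-1 (3 libraries) or shGas41-2 (2 libraries), and knockdown (KD) cells were harvested 8 days after infection. Cells with the control vector were also kept with LIF (EB day 0, replicates 2 and 3) or grown without LIF as embryoid bodies, floating aggregates that differentiate, to day 6 (EB day 6, replicates 2 and 3). All 5 groups therefore carried a vector, and all came from 1 cell line. The study's methods mention biological repeats for its experiments in general, while the labels do not tie each library to a culture of its own, so p-values measure the spread between these libraries. Infected cells were selected with puromycin.

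The shRNA targets are shown because the KD comparisons rest on them. Capitals mark the bases that pair with positions 2 to 8 of the guide strand, and both lie on the minus strand of chromosome 10 in *Yeats4* (mm9).
shGas41-1: gtagcattccacgACGTTAAg
shGas41-2: atcgttaagccaaTCGTTTAt
The shGas41-1 target is at chr10:116652513-116652533, in an untranslated exon, and that of shGas41-2 is at chr10:116659320-116659340, in a coding exon. Transcripts of the 6 factors held neither full target. The 7 bases in capitals of shGas41-1, ACGTTAA, were in transcripts of none of the 6 and of 3.21% of 22754 protein-coding genes. Those of shGas41-2, TCGTTTA, were in *Lin28a* alone among the 6 and in 3.03% of genes. *Yeats4* gave 63.2, 54.5 and 52.1 CPM (each count relative to the total of its library) in the shNT replicates. The shGas41-1 replicates gave 3.50, 4.42 and 4.79 CPM, and those of shGas41-2 gave 8.68 and 7.68 CPM. All KD libraries lay below every shNT library, with 7.93% of the control level left with shGas41-1 and 15.3% with shGas41-2 (edgeR, FDR = 0.000375 and 0.000934). *Yeats4* was at 43.6 and 45.8 CPM at EB day 0 and at 46.1 and 50.2 CPM at EB day 6, and the log2 fold change of 0.19 did not pass the test (FDR = 0.105, edgeR).

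The 250 bases before the transcription start are shown for *Nanog* and *Sox2*, since these hold the octamer-like POU motif ATGCAAA. The sequences are RefSeq's on GRCm38.p6, whose coordinates differ from those of mm9. Capitals mark that motif and the SOX motif ACAATG, searched on both strands.
Nanog, chr6:122707239-122707488, plus strand: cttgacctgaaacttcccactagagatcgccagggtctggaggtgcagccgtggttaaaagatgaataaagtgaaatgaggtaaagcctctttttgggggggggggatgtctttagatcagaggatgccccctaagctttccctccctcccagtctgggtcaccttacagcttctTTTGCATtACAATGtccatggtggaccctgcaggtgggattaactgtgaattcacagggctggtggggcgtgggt
Sox2, chr3:34649745-34649994, plus strand: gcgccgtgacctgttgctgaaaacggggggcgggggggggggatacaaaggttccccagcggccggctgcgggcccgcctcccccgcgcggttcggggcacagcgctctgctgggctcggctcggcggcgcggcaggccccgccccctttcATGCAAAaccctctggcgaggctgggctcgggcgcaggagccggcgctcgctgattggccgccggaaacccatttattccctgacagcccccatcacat
The table held promoters of 5 of the 6 factors, and *Sall4* had no entry. In *Nanog* the POU motif, read on the other strand, stood 1 base from the SOX motif. Of 32851 promoters, 4.12% held the POU motif, 10.7% the SOX motif and 0.642% both. The *Lin28a* promoter and the second of the 2 *Pou5f1* entries held a SOX motif, and that of *Utf1* held neither. A match describes these letters and was not tested as a binding site.

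On mm9, *Pou5f1* lies at chr17:35642982-35647721, *Sox2* at chr3:34548927-34551383, *Nanog* at chr6:122657507-122664651 and *Utf1* at chr7:147129688-147131011, all on the plus strand. *Sall4* lies at chr2:168573832-168593443 and *Lin28a* at chr4:133559245-133574756, both on the minus strand. Their merged exons span 2256 bases in *Pou5f1*, 2457 in *Sox2*, 2242 in *Nanog*, 5536 in *Sall4*, 3505 in *Lin28a* and 1227 in *Utf1*. Exon GC content ran from 46.0% in *Nanog* to 63.5% in *Utf1*. The library kit does not mark strand, and antisense genes share 526 exon bases with *Sall4* and 103 with *Lin28a*, so reads of these stretches cannot be assigned to 1 of the pair. Copies elsewhere in the genome (at least 90% identity over at least 100 bases) covered 70.8% of *Nanog* exon bases, the longest with 1325 bases at 97.4% identity. They covered 17.1% of *Pou5f1*, 16.3% of *Lin28a*, 8.0% of *Sall4* and none of *Sox2* and *Utf1*. Counts of *Nanog* are the least certain of the 6 in this respect.

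The 12 libraries held between 59224537 and 81524773 counts, and 3 counts correspond to between 0.0368 and 0.0507 CPM, which covers counting error only. The factors lay far above this floor, since their lowest value was 47.8 CPM. Between replicates, the chi-square of the counts divided by its degrees of freedom was 29.2 to 81.3 in most pairs, where sampling noise alone gives about 1, and was 144 and 236 in the pairs with shGas41-1 3. This library stood apart. Over 9187 genes above 10 CPM, its deviation from its group correlated with exon length across genes (Spearman rho = −0.463) and with GC content (rho = −0.344), where genes are not independent replicates. The same correlations with length were −0.432 in shNT 1, 0.485 in shNT 3, and 0.410 and 0.406 in shGas41-1 1 and 2. Each group mean includes the library itself, so deviations cancel out within a group. The values of shGas41-1 1 and 2 thus depend on shGas41-1 3 and are not separate observations. Tests of the factors against shNT with shGas41-1, and of the list genes named with it, are given with and without shGas41-1 3. The summed level of 6 markers of undifferentiated mESCs ran from 4671 to 5167 CPM in shNT, from 3870 to 4469 CPM with shGas41-1, from 4188 to 4368 CPM with shGas41-2, from 4514 to 4652 CPM at EB day 0 and from 981 to 1094 CPM at EB day 6. The sum of 4 primitive streak and mesoderm markers ran from 8.49 to 13.3 CPM in shNT, from 4.08 to 7.52 CPM with shGas41-1, from 7.11 to 7.31 CPM with shGas41-2, from 7.41 to 8.05 CPM at EB day 0 and from 1233 to 1733 CPM at EB day 6. In both sums all 5 KD libraries lay below every shNT library, while groups did not overlap for 42.2% of genes with shGas41-1 and 50.2% with shGas41-2. In the first sum *Esrrb*, *Klf4* and *Tfcp2l1* had negative log2 fold changes with both shRNAs. *Zfp42* had positive ones (0.44 and 0.33), and *Dppa5a* and *Tdgf1* had mixed signs. In the second, *Eomes* (−1.0 and −0.67) and *Mixl1* were negative with both, and *T* (0.75 and 0.50) and *Mesp1* (0.34 and 0.44) positive.

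Each factor behaved in its own way over the 5 conditions. In the main fits, *Pou5f1*, *Nanog*, *Sall4* and *Lin28a* gave no difference between KD and shNT that passed the test with either shRNA, and nor did *Sox2*. *Utf1* fell to 57.6% of the control level with shGas41-1. At EB day 6, *Utf1* fell 5.01-fold, *Sox2* 3.82-fold, *Nanog* 2.32-fold and *Pou5f1* 1.26-fold, *Lin28a* rose 2.14-fold, and *Sall4* did not pass the test. In whole populations such as these, fewer cells of a type and less RNA per cell cannot be told apart.

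**Figure D1:**
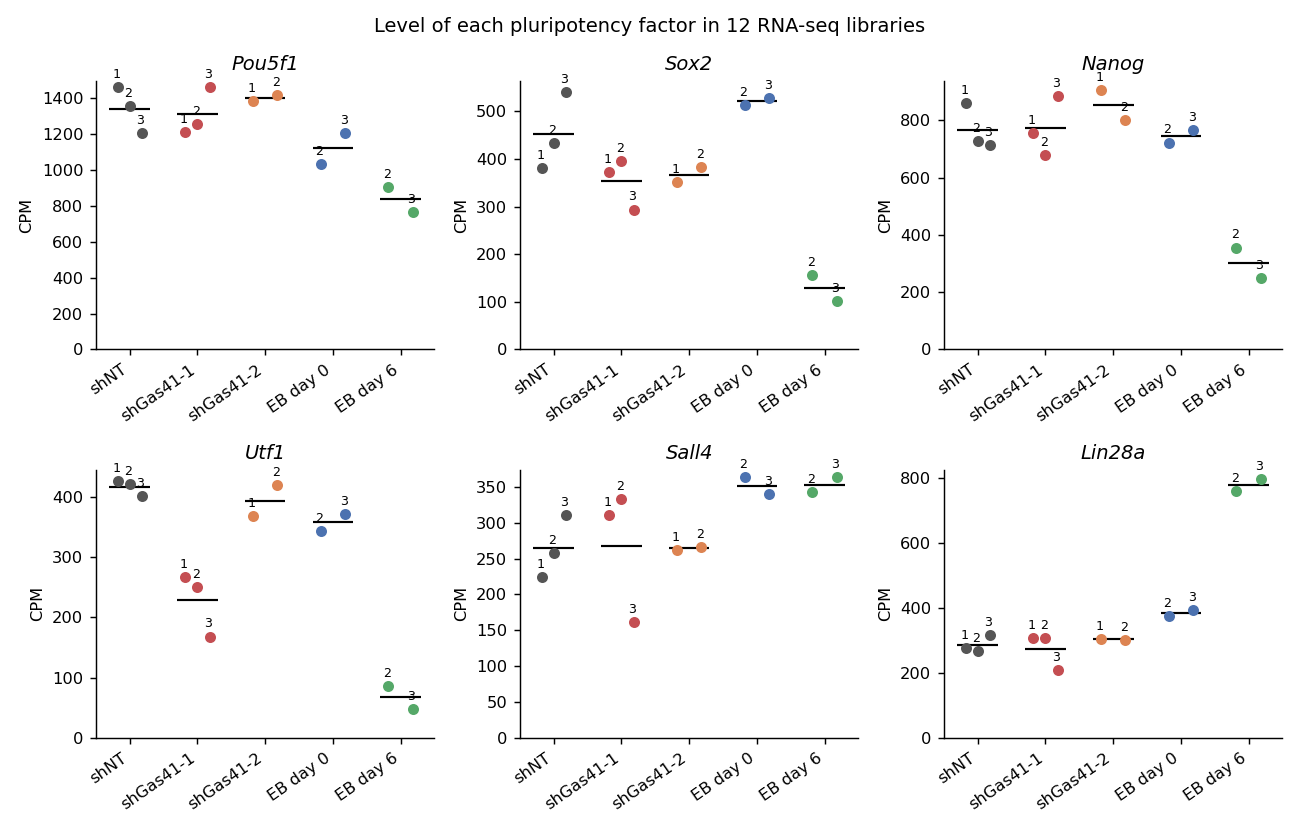
Level of each factor in CPM (y axis, from 0) in each of the 12 libraries, grouped by condition (x axis), with the replicate number beside each point and the group mean as a line. *Utf1* in shGas41-1 lies below every shNT library, between 168 and 266 CPM, and *Lin28a* at EB day 6 lies above every other library, at 760 and 795 CPM.

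*Utf1* gave 426, 421 and 401 CPM in the shNT replicates. Values were 266, 250 and 168 CPM across shGas41-1 and 367 and 419 CPM across shGas41-2. All 3 shGas41-1 libraries lay below all shNT libraries, where 42.2% of genes had groups without overlap, while those of shGas41-2 overlapped shNT. With shGas41-1 the log2 fold change was −0.80 (standard error 0.16, 95% interval −1.15 to −0.44), with FDR = 0.0111 by edgeR's quasi-likelihood test. The change passed the FDR threshold of 0.05 but not the 2-fold threshold that the study also used. Without shGas41-1 3 the log2 fold change was −0.66 (FDR = 0.00308, edgeR), and without shNT 2 it was −0.79 and the call was lost (FDR = 0.0516, edgeR). With a correction for GC content, chosen after seeing the data, it was −0.57 (FDR = 0.0163, edgeR).

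With shGas41-2 the log2 fold change of *Utf1* was 0.0010 (95% interval −0.22 to 0.22, FDR = 0.996, edgeR). Set directly against each other, shGas41-1 was lower than shGas41-2 by a log2 difference of −0.81 (95% interval −1.26 to −0.35) and did not pass over 19613 genes (FDR = 0.264, edgeR), nor without shGas41-1 3 (−0.66, FDR = 0.281, edgeR). DESeq2 gave −0.80 and FDR = 0.0422 for this difference, so that the call depended on the tool. With edgeR, no member passed between the shRNAs, and 1 of 6 had an unadjusted p under 0.05. The background was 0.0765% of genes called. *Yeats4* itself was lower with shGas41-1 than with shGas41-2 by a log2 difference of −0.96, which also did not pass (FDR = 0.0586, edgeR).

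*Pou5f1* had the highest CPM of the 6 in every library except EB day 6 3. There *Lin28a* was at 795 CPM and *Pou5f1* at 768 CPM. *Pou5f1* gave 1460, 1354 and 1204 CPM in the shNT replicates. The shGas41-1 replicates gave 1213, 1256 and 1461 CPM, and those of shGas41-2 gave 1383 and 1417 CPM. Both KDs overlapped shNT. The log2 fold changes were 0.05 with shGas41-1 (95% interval −0.29 to 0.39) and 0.15 with shGas41-2 (−0.08 to 0.38), with FDR = 0.829 and 0.379 (edgeR). Either interval excludes a 2-fold change in both directions. The sign with shGas41-1 was not stable, since the log2 fold change was −0.09 without shGas41-1 3.

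*Sox2* gave 381, 434 and 542 CPM in the shNT replicates. Values were 373, 396 and 294 CPM across shGas41-1 and 351 and 382 CPM across shGas41-2. The KD means lay below the shNT mean, but libraries overlapped. The log2 fold changes were −0.28 with shGas41-1 (95% interval −0.63 to 0.08, FDR = 0.241) and −0.22 with shGas41-2 (−0.56 to 0.12, FDR = 0.373, edgeR). Over all alternatives they stayed negative, from −0.39 to −0.14 in one KD and from −0.33 to −0.065 in the other, and none passed. Without shGas41-1 3 the first was −0.20 (FDR = 0.351, edgeR). Both KDs were compared with the same 3 shNT libraries.

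*Nanog* gave 859, 729 and 714 CPM in the shNT replicates. The shGas41-1 replicates gave 754, 679 and 883 CPM, and those of shGas41-2 gave 904 and 802 CPM. The groups overlapped. The log2 fold changes were 0.09 (95% interval −0.27 to 0.46, FDR = 0.708) and 0.23 (−0.01 to 0.48, FDR = 0.195, edgeR). The sign with shGas41-1 was not stable, since the value was −0.068 without shGas41-1 3 (FDR = 0.687, edgeR). Without shNT 1, whose *Nanog* was the highest of the 3, the shGas41-2 value was 0.32 and passed (FDR = 0.0366, edgeR).

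*Sall4* gave 224, 258 and 310 CPM in the shNT replicates. Values were 310, 332 and 162 CPM across shGas41-1 and 262 and 266 CPM across shGas41-2. The low library was shGas41-1 3. The log2 fold change with shGas41-1 was 0.09 (95% interval −0.45 to 0.62) and 0.31 without that library, and neither passed (FDR = 0.821 and 0.145, edgeR). With shGas41-2 it was 0.08 (−0.23 to 0.40, FDR = 0.735, edgeR).

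*Lin28a* gave 276, 269 and 318 CPM in the shNT replicates. The shGas41-1 replicates gave 309, 307 and 208 CPM, and those of shGas41-2 gave 305 and 303 CPM. Again shGas41-1 3 was the low library. The log2 fold changes were 0.01 (95% interval −0.34 to 0.35, FDR = 0.984) with shGas41-1, 0.13 without shGas41-1 3, and 0.16 (−0.07 to 0.39, FDR = 0.329, edgeR) with shGas41-2. *Lin28a* is the 1 factor with a match to the 7 bases of shGas41-2.

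**Figure D2:**
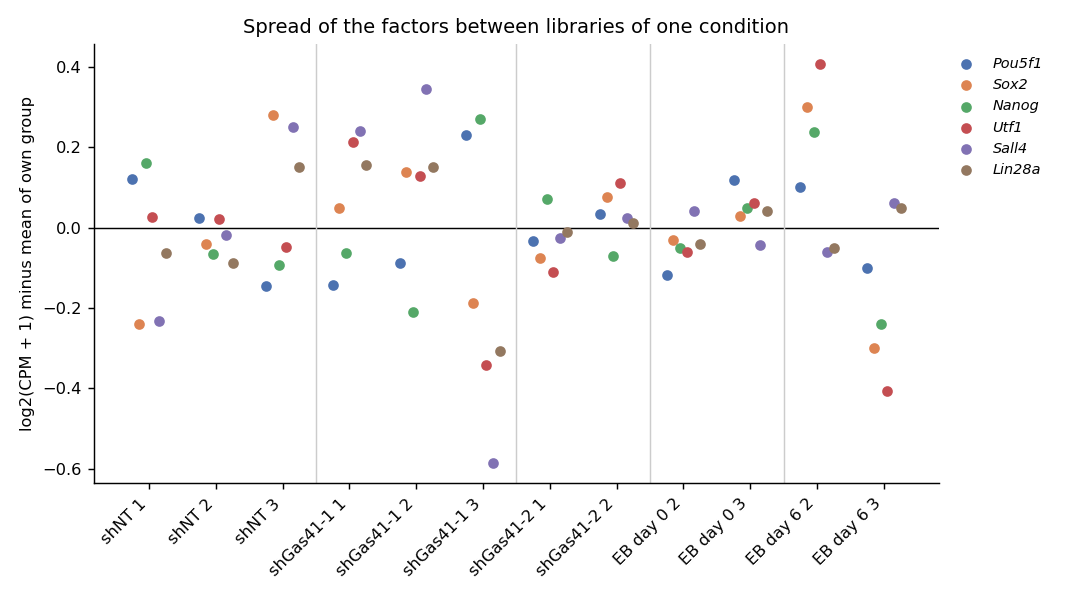
Deviation of each factor from the mean of its own group on the log2(CPM + 1) scale (y axis, TMM-scaled) in each library (x axis), with grey lines between conditions. In shGas41-1 3 *Sall4* lies at −0.59, *Utf1* at −0.34 and *Lin28a* at −0.31, while *Nanog* lies at 0.27 and *Pou5f1* at 0.23.

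The deviations of the 6 within their groups are given first for the 5 libraries with the largest correlations with exon length. Since deviations cancel out within a group, those of its libraries depend on each other. In shGas41-1 3, *Sall4*, *Utf1*, *Lin28a* and *Sox2* lay below their group means, by −0.59, −0.34, −0.31 and −0.19 on the log2(CPM + 1) scale, and *Nanog* and *Pou5f1* above, by 0.27 and 0.23. In shNT 1, *Sox2*, *Sall4* and *Lin28a* lay below (−0.24, −0.23 and −0.06) and *Nanog*, *Pou5f1* and *Utf1* above (0.16, 0.12 and 0.03). Both libraries had negative correlations with exon length. In shNT 3, where that correlation was positive, *Sox2*, *Sall4* and *Lin28a* lay above (0.28, 0.25 and 0.15) and *Pou5f1*, *Nanog* and *Utf1* below (−0.14, −0.09 and −0.05). In shGas41-1 1 and 2, *Sall4* lay at 0.24 and 0.34, *Utf1* at 0.21 and 0.13, *Lin28a* at 0.15 in both and *Sox2* at 0.05 and 0.14, with *Nanog* (−0.06 and −0.21) and *Pou5f1* (−0.14 and −0.09) below. The correlation with length was also negative, though smaller, in EB day 0 3 (−0.353) and EB day 6 3 (−0.264). It was smaller still in shNT 2 (−0.167) and shGas41-2 1 (−0.060). In shNT 2, *Sox2*, *Sall4*, *Lin28a* and *Nanog* lay below (−0.04, −0.02, −0.09 and −0.07) and *Pou5f1* and *Utf1* above (0.02 in both). In shGas41-2 1, *Sox2*, *Sall4*, *Lin28a*, *Utf1* and *Pou5f1* lay below (−0.08, −0.03, −0.01, −0.11 and −0.03) and *Nanog* above (0.07). In EB day 6 3, *Sall4* and *Lin28a* lay above their group means (0.06 and 0.05), and *Utf1*, *Sox2*, *Nanog* and *Pou5f1* below (−0.41, −0.30, −0.24 and −0.10). In EB day 0 3, *Sall4* alone lay below (−0.04), and the others above, by up to 0.12 in *Pou5f1*. The part of length and GC content in the KD values was not tested beyond the GC correction.

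Of the 6 factors, 1 fell and none rose with shGas41-1, against 7.73% of 18274 genes called lower and 10.8% called higher at FDR of 0.05 or less. None met the 2-fold rule, against 10.3% of genes. With shGas41-2, edgeR called none of the 6, and none had an unadjusted p under 0.05. Of 18405 genes, edgeR called 9.91% by FDR and 4.82% with the 2-fold rule. DESeq2 also called none of the 6, against 2932 of all genes. With the replicate number as a block, which no label ties to cultures, edgeR called 3 of the 6, all higher, against 7166 of all genes. The 3 were *Nanog* (0.19, FDR = 0.00368), *Sall4* (0.22, FDR = 0.000952) and *Lin28a* (0.24, FDR = 0.000235, edgeR). The groups did not overlap in CPM for 1 of 6 factors with shGas41-1 and none with shGas41-2, against 42.2% and 50.2% of genes. The 6 had a median log2 fold change of 0.03 with shGas41-1 and 0.11 with shGas41-2, against 0.02 and −0.01 over all genes. With 6 genes, 1 or 0 called in the main fits is close to the shares of genes called by FDR. The share of factors without overlap was below that of all genes with both shRNAs, and this difference was not tested.

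**Figure D3:**
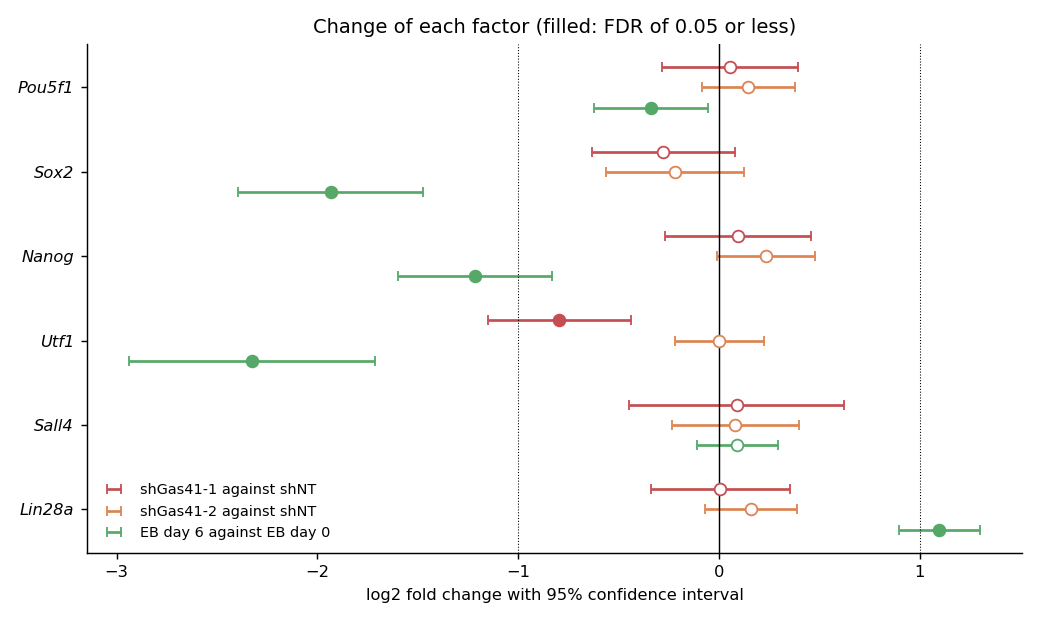
Log2 fold change (x axis) of each factor (y axis) in 3 comparisons, with 95% confidence intervals as bars, filled points at FDR of 0.05 or less in edgeR, and dotted lines at 2-fold. The KD points other than *Utf1* with shGas41-1 are open and lie between −0.28 and 0.23, while at EB day 6 only *Sall4* is open.

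Embryoid body formation gave larger changes than the KDs in *Utf1*, *Sox2*, *Nanog* and *Lin28a*. *Utf1* was measured at 344 and 371 CPM in the EB day 0 libraries and at 86.8 and 47.8 CPM at EB day 6. The groups were far apart. The log2 fold change was −2.33 (standard error 0.25, 95% interval −2.94 to −1.71, FDR = 0.000428, edgeR). *Utf1* had the largest fall of the 6. With each library left out in turn its log2 fold change ran from −2.80 to −1.96. Each such fit left 1 library in a group, which was assumed to vary as the other pair.

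*Sox2* was measured at 513 and 529 CPM at EB day 0 and at 157 and 101 CPM at EB day 6. The log2 fold change was −1.93 (standard error 0.19, 95% interval −2.40 to −1.47, FDR = 0.000284, edgeR). It ran from −2.27 to −1.65 with each library left out, again with 1 library in a group. *Nanog* was measured at 722 and 767 CPM at EB day 0 and at 356 and 249 CPM at EB day 6, and its log2 fold change was −1.22 (standard error 0.16, FDR = 0.000932, edgeR). Its call was lost without EB day 0 replicate 3, where 1 control library remained and was assumed to vary as the EB day 6 pair (−1.17, FDR = 0.0598, edgeR). Without EB day 6 replicate 3 it was −0.99, just short of 2-fold (FDR = 5.9e-07, edgeR). With all libraries the 3 factors fell more than 2-fold, and their EB day 6 libraries lay below every other library of the series.

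*Pou5f1* fell least. It was measured at 1034 and 1206 CPM at EB day 0 and at 904 and 768 CPM at EB day 6. The log2 fold change was −0.34 (standard error 0.12, 95% interval −0.62 to −0.06, FDR = 0.0446, edgeR). This call stood near the threshold. It was lost without EB day 6 replicate 3 (−0.23, FDR = 0.192), without EB day 0 replicate 2 (−0.46, FDR = 0.0566), without EB day 0 replicate 3 (−0.22, FDR = 0.286) and in a fit of all 12 libraries (−0.32, FDR = 0.102, edgeR). It stood without EB day 6 replicate 2 (−0.44, FDR = 0.0138, edgeR).

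*Sall4* was measured at 363 and 339 CPM at EB day 0 and at 342 and 364 CPM at EB day 6. The groups overlapped, and the log2 fold change was 0.09 (95% interval −0.11 to 0.29, FDR = 0.385, edgeR). *Lin28a* went the other way, from 377 and 395 CPM at EB day 0 to 760 and 795 CPM at EB day 6. Its log2 fold change was 1.10 (standard error 0.08, 95% interval 0.89 to 1.30, FDR = 9.9e-05, edgeR). It ran from 1.05 to 1.15 with each library left out, where 1 library remained in a group.

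Of the 6, 4 fell and 1 rose at EB day 6, against 28.4% of 18287 genes called lower and 30.5% called higher. By the 2-fold rule 3 fell and 1 rose, against 14.7% and 16.6% of genes. The groups did not overlap for 5 of 6, which means little with 2 libraries a group, since this held for 82.7% of genes. The 6 had a median log2 fold change of −0.78, against −0.0028 over all genes.

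The EB response was then set against the response to each shRNA in 1 fit of all 12 libraries. Against shGas41-1, the response was lower at EB day 6 by a log2 difference of −1.62 for *Sox2*, −1.49 for *Utf1* and −1.27 for *Nanog*, and higher by 1.13 for *Lin28a* (FDR = 0.000404, 0.00172, 0.000967 and 0.000693, edgeR). Against shGas41-2 the same 4 genes passed, with −1.69 for *Sox2*, −2.30 for *Utf1*, −1.42 for *Nanog* and 0.96 for *Lin28a* (FDR = 0.000436, 0.000131, 0.000647 and 0.00309, edgeR). The 4 passed with any 1 library left out. *Pou5f1* did not pass in either (log2 difference −0.35, FDR = 0.164, and −0.46, FDR = 0.0930, edgeR), and nor did *Sall4* (0.05 and 0.04, FDR = 0.923 and 0.941). The background was 45.1% of 19613 genes called against shGas41-1 and 41.6% against shGas41-2. These comparisons share the EB libraries and shNT, so they are not independent of each other.

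The 2 sets of undifferentiated controls were also compared. From shNT to EB day 0 no factor passed with edgeR, against 0.387% of genes called, and 1 of 6 had an unadjusted p under 0.05. DESeq2 also called none of the 6, and its larger count over all genes is given at the end. *Lin28a* was 1.32-fold higher at EB day 0 (log2 difference 0.40, 95% interval 0.10 to 0.71, FDR = 0.179, edgeR). Both EB day 0 libraries lay above the 3 of shNT, a pattern whose share over all genes was not counted. *Sall4* gave 0.39 (−0.09 to 0.88) and *Pou5f1* −0.28 (−0.58 to 0.03).

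Levels were compared between the factors per length, as RPKM (CPM per kilobase of merged exons). In shNT the order was *Pou5f1* (594 ± 57.1 RPKM, SD, n = 3), *Nanog* (342 ± 35.6), *Utf1* (339 ± 10.9), *Sox2* (184 ± 33.4), *Lin28a* (82.0 ± 7.49) and *Sall4* (47.7 ± 7.88). *Nanog* and *Utf1* overlapped between libraries, and the other neighbours did not. In shGas41-1 *Utf1* was at 186 ± 42.9 RPKM (SD, n = 3), overlapping *Sox2* at 144 ± 21.7, and *Lin28a* at 78.4 ± 16.5 overlapped *Sall4* at 48.4 ± 16.7. In shGas41-2 and at EB day 0 the order was that of shNT, with no overlap between neighbours. At EB day 6 *Lin28a* stood second, at 222 ± 7.23 RPKM (SD, n = 2), behind *Pou5f1* at 370 ± 42.5 and ahead of *Nanog* at 135 ± 33.6. *Sall4* (63.7 ± 2.76), *Utf1* (54.9 ± 22.5) and *Sox2* (52.4 ± 16.1) overlapped as neighbours at the low end.

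**Figure D4:**
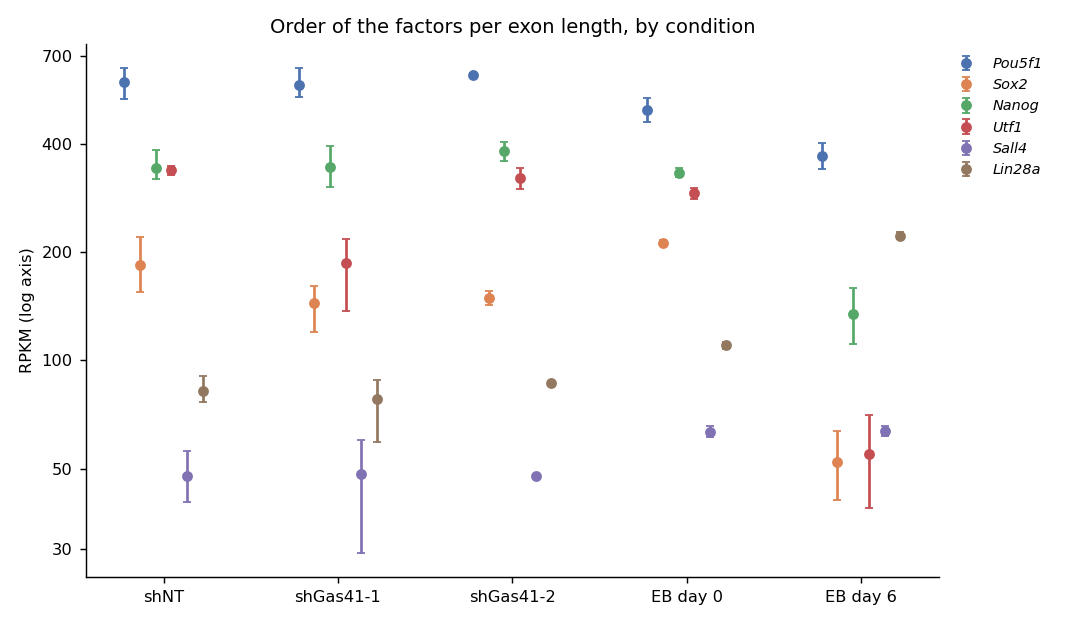
Mean level of each factor in RPKM (y axis, log scale) in the 5 conditions (x axis), with bars from the lowest to the highest library of the group. *Pou5f1* is highest in every condition, and *Lin28a* moves from the fifth place in the first 4 conditions to the second at EB day 6.

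Within a library the 6 factors took between 0.232% and 0.363% of all counts. They summed to 3626, 3464 and 3488 CPM in shNT 1 to 3, to 3225, 3221 and 3176 CPM in shGas41-1, and to 3574 and 3590 CPM in shGas41-2. At EB day 0 they summed to 3352 and 3606 CPM, and at EB day 6 to 2604 and 2325 CPM. *Lin28a* made up 11.2% and 10.9% of the counts of the 6 at EB day 0 and 29.2% and 34.2% at EB day 6. *Pou5f1* kept a share of 30.8% and 33.4% at EB day 0 and of 34.7% and 33.0% at EB day 6. For each *Pou5f1* count, there were 0.332 and 0.307 *Utf1* counts at EB day 0 and 0.0961 and 0.0623 at EB day 6. In shGas41-1 1 to 3 this ratio was 0.220, 0.199 and 0.115, below the 0.292, 0.311 and 0.333 of shNT 1 to 3.

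The rest of the pluripotency network was followed with a list of 24 other genes, also chosen with earlier results of these data known. With shGas41-1, 3 rose and 6 fell, against 10.8% and 7.73% of all genes, and their median log2 fold change was −0.01. *Tfcp2l1* (−1.55, standard error 0.29, FDR = 0.00920) and *Klf4* (−1.13, standard error 0.19, FDR = 0.00554, edgeR) fell the most, and both encode transcription factors. *Dppa3*, an oocyte and germline gene also known as Stella, rose by 2.90 on the log2 scale (standard error 0.37, FDR = 0.00295, edgeR), from between 0.260 and 0.456 CPM in shNT to between 1.50 and 3.03 CPM. *Rif1*, a telomere and replication timing factor, rose by 0.64 (FDR = 0.00714, edgeR). Without shGas41-1 3 all 9 calls stood, with log2 fold changes of −1.33 for *Tfcp2l1*, −1.01 for *Klf4*, 2.67 for *Dppa3* and 0.65 for *Rif1*. Of the 9, 5 stood without shGas41-1 1, 3 without shNT 2 and 4 without shNT 3. *Tfcp2l1*, *Klf4* and *Dppa3* passed with any 1 library left out, and *Rif1* was lost without shNT 2 (0.63, FDR = 0.0520, edgeR).

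With shGas41-2, 1 of the 24 fell and none rose, against 3.97% and 5.94% of all genes, with a median of 0.07. The gene called was *Klf4* (−0.65, standard error 0.16, FDR = 0.0412, edgeR). This call was lost without shGas41-2 1 (−0.72, FDR = 0.165), shGas41-2 2 (−0.60, FDR = 0.227) and shNT 2 (−0.73, FDR = 0.0763, edgeR). Without shNT 1, 5 of the 24 rose and 4 fell. The shNT replicates gave 231, 235 and 324 CPM of *Klf4*, those of shGas41-1 138, 119 and 86.7 CPM, and those of shGas41-2 167 and 150 CPM. All 5 KD libraries lay below all shNT libraries, which for *Utf1* held only with shGas41-1. Groups did not overlap for 42.2% of all genes with shGas41-1 and 50.2% with shGas41-2.

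At EB day 6, 20 of the 24 fell and 2 rose, against 28.4% and 30.5% of all genes, with a median log2 fold change of −2.97. Of the 20, 18 fell 2-fold or more. Without EB day 0 replicate 3, 15 fell and 1 rose. *Klf4* fell by 5.64 on the log2 scale (FDR = 1.2e-06), from 271 and 276 CPM to 5.10 and 5.21 CPM, and *Tcl1*, a coactivator of Akt signalling, by 5.00 (FDR = 9.4e-05, edgeR). *Lefty1*, a Nodal antagonist (log2 fold change 3.02, FDR = 0.000326), and *Tdgf1*, a Nodal coreceptor (0.67, FDR = 0.00644, edgeR), rose, and *Tdgf1* was lost without either EB day 0 library (FDR = 0.0754 and 0.0944, edgeR). The log2 falls of *Pou5f1*, *Nanog*, *Sox2* and *Utf1* were all smaller than the median of these 24.

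**Figure D5:**
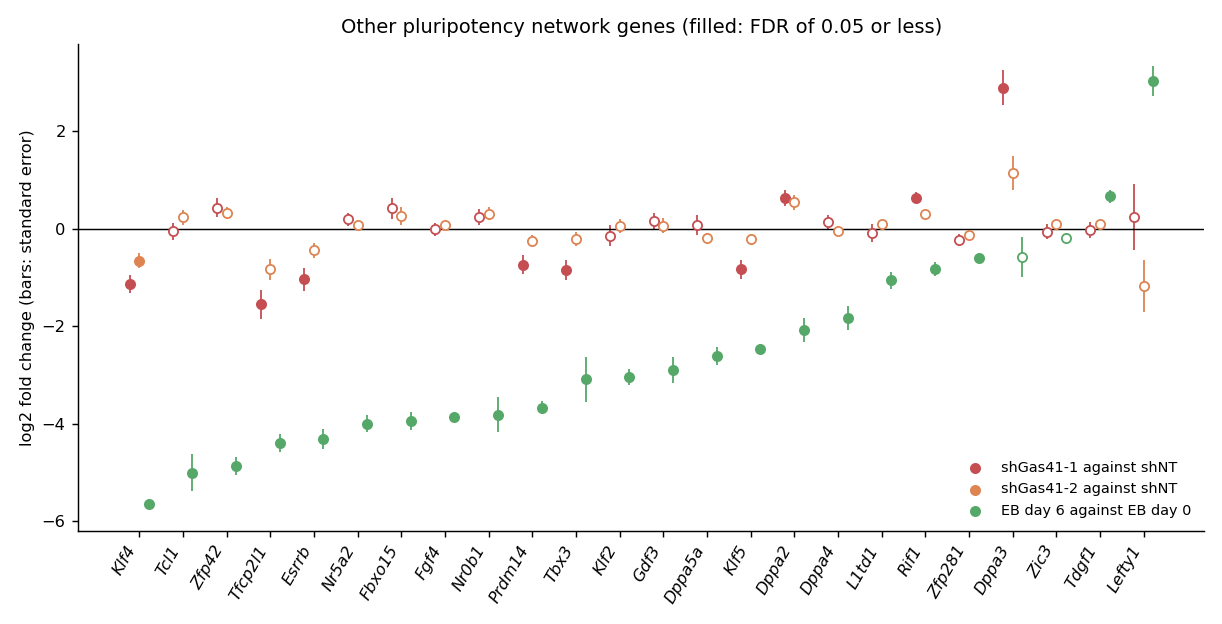
Log2 fold change (y axis, bars show the standard error) of 24 other pluripotency network genes (x axis, ordered by the EB value) in 3 comparisons, filled at FDR of 0.05 or less in edgeR. At EB day 6, 20 of the 24 fell, from *Klf4* at −5.64 upward, while with shGas41-2 only *Klf4* is filled.

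Relatives of the 6 factors were examined as a list of 12, of which 10 passed the count filter and *Pou3f2* and *Sox1* did not. With shGas41-1, 1 rose and 3 fell, against 10.8% and 7.73% of all genes, and with shGas41-2, 1 rose and 1 fell, against 5.94% and 3.97%. *Sox3*, the close relative of *Sox2*, was the gene that rose with both (log2 fold change 1.18, FDR = 0.0368, and 1.11, FDR = 0.0284, edgeR). Its level was low, from 1.06 to 1.57 CPM in shNT, from 1.59 to 4.01 CPM with shGas41-1, and 2.38 and 2.85 CPM with shGas41-2. *Lin28b*, the paralog of *Lin28a*, fell with shGas41-2 (−0.53, FDR = 0.0301, edgeR). It also fell with shGas41-1 (−0.44, FDR = 0.0420, edgeR), a value named after the data were seen. *Pou2f3* (−1.48, FDR = 0.0220) and *Sall1* (−0.88, FDR = 0.0352, edgeR) fell with shGas41-1. These 10 had a median of 0.13 with shGas41-1 and −0.09 with shGas41-2. Without shGas41-1 3, 2 rose and 3 fell, with *Sox3* at 1.42, *Lin28b* at −0.48, *Sall1* at −0.66 and *Pou2f3* at −1.27. None of the 4 calls with shGas41-1 stood without shGas41-1 1, shNT 2 or shNT 3, and 2 stood without shGas41-1 2 or shNT 1. With shGas41-2 neither call stood without shGas41-2 1 or 2, and *Lin28b* was also lost without shNT 2 (−0.59, FDR = 0.0705, edgeR).

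Of the 10 relatives, 5 rose and 3 fell at EB day 6, against 30.5% and 28.4% of all genes, with a median log2 fold change of 0.60. Without EB day 0 replicate 2, and likewise without replicate 3, 4 rose and 2 fell. *Sox3* rose by 3.21 (FDR = 0.000385) while *Sox2* fell, and reached 12.0 and 6.47 CPM. *Sall2* rose by 2.98 (FDR = 5.4e-05, edgeR) while *Sall4* did not pass. *Sox15* fell by 2.31 on the log2 scale (FDR = 0.000204) and *Pou2f3* by 1.74 (FDR = 0.00128, edgeR). *Lin28b* was at 43.8 and 43.0 CPM at EB day 0 and at 116 and 93.2 CPM at EB day 6.

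Genes around let-7, the miRNA family that Lin28a and Lin28b restrain, were followed as a list of 12. With each shRNA 1 fell and none rose, against 7.73% of all genes called lower with shGas41-1 and 3.97% with shGas41-2, and the gene was *Dicer1*, which encodes the RNase that cuts miRNA precursors (log2 fold change −0.67, FDR = 0.0438, and −0.65, FDR = 0.0344, edgeR). Without shGas41-1 3 the first value was −0.49 (FDR = 0.0380, edgeR). It was lost without shGas41-1 1 and without any of the 3 shNT libraries (FDR from 0.0561 to 0.148), and the call with shGas41-2 was lost without shGas41-2 1, shGas41-2 2 or shNT 2 (FDR from 0.0750 to 0.233, edgeR). The list's median was −0.19 with shGas41-1 and −0.21 with shGas41-2. In EBs 7 rose and 1 fell, against 30.5% and 28.4% of all genes, with a median of 0.33. Without EB day 0 replicate 3, 2 rose and 1 fell. Of the let-7 targets, *Hmga2*, which encodes a chromatin protein, rose by a log2 fold change of 3.94 (FDR = 0.000228), from 22.1 and 16.6 CPM to 180 and 378 CPM. *Igf2bp3*, which encodes an RNA-binding protein, rose by 1.56 (FDR = 2.1e-05, edgeR). *Trim71*, also a let-7 target, fell by 0.66 (FDR = 0.000912, edgeR), from 109 and 99.6 CPM to 65.1 and 59.0 CPM. Levels of let-7 itself were not analysed here.

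Differentiation markers were followed as a list of 16, of which 15 passed the filter and *Afp* did not. With shGas41-1, 5 rose and 1 fell, against 10.8% and 7.73% of all genes, with a median log2 fold change of 0.87. With shGas41-2, 1 rose and none fell, against 5.94% and 3.97%, with a median of 0.92. *Gata3* (4.30, FDR = 0.00210) and *Cdx2* (2.50, FDR = 0.00776, edgeR), which encode trophoblast transcription factors, rose the most with shGas41-1, and *Eomes* fell (−1.0, FDR = 0.0343, edgeR). *Gata3* was the gene called with shGas41-2 (3.26, FDR = 0.00279, edgeR). Without shGas41-1 3, *Gata3* was at 4.55, *Cdx2* at 2.54 and *Eomes* at −0.79 (FDR = 0.0456), and 4 rose, since *Fgf5* no longer passed (2.13, FDR = 0.0528, edgeR). *Eomes* was lost without shGas41-1 1, shNT 2 or shNT 3 (FDR from 0.0787 to 0.120, edgeR), while *Gata3* passed with any 1 library left out in both KDs. Their levels were low beside the 6 factors. *Gata3* was at 0.0829 to 0.186 CPM in shNT, 1.33 to 3.23 CPM with shGas41-1, and 1.19 and 1.02 CPM with shGas41-2. The sum of 3 trophoblast markers ran from 0.345 to 0.912 CPM in shNT from 2.72 to 5.56 CPM in shGas41-1 and from 2.17 to 2.66 CPM in shGas41-2. It lay above shNT with both shRNAs, while groups did not overlap for 42.2% of genes with shGas41-1 and 50.2% with shGas41-2. Within shGas41-1 this sum was lowest, at 2.72 CPM, in shGas41-1 3. The sum of 3 neural markers ran from 10.8 to 11.4 CPM in shNT, from 17.2 to 22.4 CPM in shGas41-1 and from 12.1 to 14.6 CPM in shGas41-2, and that of 5 endoderm markers from 1.74 to 2.14, from 2.47 to 5.16 and from 2.55 to 2.56 CPM. The part of trophoblast, neural and endoderm markers in the values of *Utf1* was not tested.

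Of the 15 markers, 14 rose and none fell at EB day 6, against 30.5% and 28.4% of all genes, with a median log2 fold change of 5.94. Without EB day 0 replicate 3, 9 rose. *Fgf5*, an epiblast growth factor, was at 0.0560 and 0.0942 CPM at EB day 0 and at 213 and 187 CPM at EB day 6 (log2 fold change 11.45, FDR = 1.2e-06, edgeR). *T*, the Brachyury gene of the primitive streak, went from 0.322 and 0.361 CPM to 406 and 496 CPM (10.45, FDR = 1.4e-06, edgeR). Markers of cells other than ESCs thus moved with the fall of *Utf1*, *Sox2*, *Nanog* and *Pou5f1* and with the rise of *Lin28a*, and their part in these values was not tested. The sum of 5 endoderm markers was between 58.9 and 148 CPM at EB day 6 and that of 3 neural markers between 171 and 173 CPM, against 2.20 to 3.30 CPM and 12.3 to 13.2 CPM at EB day 0.

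Of 8 fibroblast markers, *Col3a1*, *Dcn*, *Lum* and *Postn* passed the count filter in no comparison. The summed level of the 8 was between 11.1 and 19.8 CPM in shNT and between 6.32 and 11.02 CPM in shGas41-1. All 3 shGas41-1 libraries lay below shNT, while groups did not overlap for 42.2% of genes. The sum was between 13.6 and 14.4 CPM in shGas41-2. At EB day 0 it was between 10.6 and 14.4 CPM, and at EB day 6 between 24.9 and 29.9 CPM. *Thy1* fell with shGas41-1 (log2 fold change −1.10, FDR = 0.0109, and −1.06, FDR = 0.0199, without shGas41-1 3), with 3 tested, and no marker passed with shGas41-2. In EBs 3 of 4 tested rose, among them *Col1a2* (3.66, FDR = 0.000572) and *Col1a1* (2.05, FDR = 0.00211, edgeR), which was lost without EB day 0 replicate 3 (1.94, FDR = 0.0680, edgeR). The medians were −0.62, −0.12 and 1.96.

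For each factor, the genes with the most similar profile over the 12 libraries were sought among 14565 named genes, by Pearson r of log2(CPM + 1). The libraries fall into 5 conditions and share depth and composition trends, so these values describe likeness and carry no test. For *Pou5f1* the closest were *Med17*, *Alkbh7* and *Uba2* (r = 0.985, 0.970 and 0.970), and *Rgp1* was the most opposed (r = −0.974). For *Sall4* they were *Ddx42*, *Khsrp* and *Mark2* (r = 0.983, 0.970 and 0.968), opposed by *Sec61g* (r = −0.988). These 2 factors changed least at EB day 6, and without the EB day 6 libraries *Med17* still gave r = 0.968 and *Ddx42* r = 0.993.

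For *Sox2* the closest were *Vps33b*, *Kndc1* and *Esyt3* (r = 0.989, 0.987 and 0.985), opposed by *Hmgn2* (r = −0.985). For *Nanog* they were *Stmn2*, *Hist1h2bq* and *Gtf2h1* (r = 0.987, 0.982 and 0.981), opposed by *Lrig3* (r = −0.990). For *Utf1* they were *Wsb2*, *Tubb2b* and *Tubb2a* (r = 0.987, 0.984 and 0.984), opposed by *Rgs17* (r = −0.983). *Lin28a* was closest to *Cadm1*, *Yap1* and *Fgfr1* (r = 0.989, 0.986 and 0.986) and opposed by *Mrpl24* (r = −0.992). None of the 6 had another of the 6 among its 3 closest genes. Without the EB day 6 libraries r fell to 0.758 for *Hist1h2bq* with *Nanog*, and its rank went from 2 to 705. For *Tubb2a* with *Utf1* r stayed at 0.969, and the rank went from 3 to 7.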

How the data were processed

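RNA-seq of 12 J1 mESC libraries was analysed, and 15 ChIP-seq samples were not used here. The authors aligned the reads to the mm9 genome and transcriptome using TopHat2 (version 2.0.10 in the submitters' processing notes) and obtained counts with htseq-count, deposited as raw whole counts for every gene. The deposited log2 fold changes, p-values and FDR of the authors' own edgeR comparisons were not used. Libraries were grouped by their labels. The columns named ESC in the EB table were read as EB day 0.

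Counts were tested in R 4.3.3 with edgeR 4.0.16 (filterByExpr with minimum count 10 and minimum total 15, TMM, quasi-likelihood test, two-sided, Benjamini-Hochberg adjustment over all genes tested). KD and EB comparisons were fitted on the groups compared, and the other 4 of 7 comparisons on all 12 libraries. The edgeR fit of each comparison was first tried on simulated counts, and the other steps were not. Total counts of 59224537 to 81524773 give the depth. CPM was scaled by total counts and log2(CPM + 1) by TMM. Genes named were the members, *Yeats4*, up to 2 highest and 2 lowest called genes of each list and comparison, and the 3 closest and 1 most opposed gene of each member. The members and lists were chosen with earlier results of these data known. Alternatives were DESeq2 1.42.0, library size alone, no filter, a replicate block, leaving out each library, a 12-library fit, a GC correction added after seeing the data, and, for likeness, Spearman rho and leaving out EB day 6. Exon lengths and positions came from GENCODE on mm9.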

Additional observations from a re-analysis of the deposited data

How the results depend on the processing

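Of the member counts, 77 of 82 alternative values stayed within 1.5 times of the main count. With the replicate number as a block, edgeR called 3 factors with shGas41-2 in place of none (*Nanog* 0.19, *Sall4* 0.22 and *Lin28a* 0.24) and 7166 genes in place of 1824. With shGas41-1 the block left 1 factor and 1549 genes in place of 3383, and at EB day 6 it left 5 factors and 11033 genes in place of 10779. Same-numbered libraries correlated by between −0.687 and 0.206 with shGas41-1 (not every sample best with its own number), by 0.574 and 0.534 with shGas41-2, and by 0.118 at EB day 6, and nothing in the labels says that numbers pair cultures. The block changed no member call in the other 4 comparisons. DESeq2 called 1 factor between the shRNAs in place of none.

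With single libraries left out, the members called ran from 0 to 1 with shGas41-1, from 0 to 1 with shGas41-2 and from 3 to 5 at EB day 6, and stayed at 0 between the shRNAs, at 4 in both EB differences and at 0 from shNT to EB day 0. Over all genes, leaving out single libraries moved the number called to between 1441 and 3848 with shGas41-1, 306 and 4131 with shGas41-2, 5066 and 10921 at EB day 6, 0 and 24 between the shRNAs (15 with all libraries) and 1 and 8 from shNT to EB day 0 (76 with all). DESeq2 called 2932 genes with shGas41-2, 218 between the shRNAs and 1111 from shNT to EB day 0. The 12-library fit called 5425 with shGas41-1. Between the shRNAs, library size alone called 5 and the block 0 (1423 at an unadjusted p under 0.05), and from shNT to EB day 0 the block called 29 and the GC correction 19.

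Values near 0 changed sign. With shGas41-1, *Pou5f1* was −0.032 with library size alone, and *Lin28a* −0.065 with library size alone, −0.0048 with DESeq2, −0.010 without the filter, −0.0050 with the block and −0.014 in the 12-library fit. With shGas41-2, *Utf1* was −0.081 with library size alone, −0.0075 without the filter, −0.028 with the block and −0.0056 in the 12-library fit. Between the shRNAs, *Sall4* was 0.021 with library size alone, 0.013 with the block and 0.023 with the GC correction. In the EB difference against shGas41-1, *Sall4* was −0.016 with library size alone and −0.049 with the GC correction, and against shGas41-2 it was −0.027 with the GC correction. With single libraries left out, log2 values with shGas41-1 ran from −0.086 to 0.13 for *Pou5f1*, −0.068 to 0.20 for *Nanog*, −0.077 to 0.31 for *Sall4* and −0.064 to 0.13 for *Lin28a*. With shGas41-2 they ran from −0.021 to 0.22 for *Sall4* and −0.12 to 0.11 for *Utf1*. Between the shRNAs they ran from −0.15 to 0.018 for *Sox2* and −0.18 to 0.23 for *Sall4*. The EB differences of *Sall4* ran from −0.19 to 0.21 and from −0.096 to 0.12, and *Nanog* from shNT to EB day 0 from −0.12 to 0.019. None of these sign changes involved a called value, and the cause was not tested.

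For likeness, 19 of 24 correlations moved by 0.1 or less with Spearman rho and 20 of 24 without EB day 6. Groups of 2 and 3 libraries, and not counts, limit the precision of these factors.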
